A study of Mus musculus with 18 samples.

Results

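Kynu, Il4i1, Kmo, Afmid, Ido1 and Ahr are mouse genes of tryptophan and amino acid oxidation, with the gene of the receptor that binds products of that oxidation. They are 6 of the 35275 genes in the expression table, found there by their Ensembl gene IDs. Kynu and Il4i1 were chosen by their measured FPKM, which differed between the groups of these data, so their differences are given as a description, with no p-value. Kmo, Afmid, Ido1 and Ahr were listed with them for their place in the pathway. Pan B cells were taken from C57BL/6 mouse spleens, and their RNA was sequenced in 6 groups of 3 libraries. After 1 h with 1000 ng/ml mBaffR-mFc, a BAFF receptor fusion protein used to block the part of BAFF that contacts its receptor BR3, cells spent 4 h with 100 ng/ml BAFF 60mer (BRFc_60mer), 100 ng/ml BAFF 3mer (BRFc_3mer) or no BAFF (BRFc). Other cells were given a control antibody for 1 h at 1000 ng/ml and then treated alike (Ab_60mer, Ab_3mer and Ab). The design asks what the 3-subunit and 60-subunit forms of this B cell survival cytokine do to transcripts, and whether the blocking protein alters it. The sources used here do not say whether the libraries of a group came from separate animals or cultures, so each p-value speaks for the spread among the libraries sequenced, which may be technical.

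The kynurenine route is the main way by which mammals break down tryptophan. The dioxygenases encoded by Ido1, Ido2 and Tdo2 open the indole ring, the formamidase encoded by Afmid releases kynurenine, and the monooxygenase encoded by Kmo and the kynureninase encoded by Kynu carry it toward 3-hydroxyanthranilate, which the dioxygenase encoded by Haao passes on toward NAD. IL4I1 is a secreted L-amino acid oxidase that acts on phenylalanine and, more weakly, on tryptophan, and is known from interleukin-4-stimulated B cells and from antigen-presenting cells. Kynurenine and the indole metabolites made through IL4I1 can bind AHR, the aryl hydrocarbon receptor, a ligand-activated transcription factor whose best known target is Cyp1a1.

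On GRCm38, Kynu (ENSMUSG00000026866) lies at chr2:43555329-43682715 on the plus strand, Il4i1 (ENSMUSG00000074141) at chr7:44816387-44840809 on the plus strand and Kmo (ENSMUSG00000039783) at chr1:175620381-175662116 on the plus strand. Afmid (ENSMUSG00000017718) lies at chr11:117825924-117839908 on the plus strand, Ido1 (ENSMUSG00000031551) at chr8:24584136-24597009 on the minus strand and Ahr (ENSMUSG00000019256) at chr12:35497974-35535038 on the minus strand. RefSeq start regions (GRCm38.p6, 300 bases that run across the annotated start) were found for 4 of 7 genes looked up, the 6 genes and Haao. Those of Il4i1, the most abundant of the 6 genes, and of Haao, the next enzyme after Kynu, whose level is described further on, are shown 5′ to 3′ along the gene, with capitals marking GCGTG, the core letters of the site AHR binds.
Il4i1: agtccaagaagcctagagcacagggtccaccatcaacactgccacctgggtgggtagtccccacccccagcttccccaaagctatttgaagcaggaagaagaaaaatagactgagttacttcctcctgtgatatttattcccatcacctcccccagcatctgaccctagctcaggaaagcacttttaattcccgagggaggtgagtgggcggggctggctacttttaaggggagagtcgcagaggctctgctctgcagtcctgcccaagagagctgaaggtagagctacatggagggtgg
Haao: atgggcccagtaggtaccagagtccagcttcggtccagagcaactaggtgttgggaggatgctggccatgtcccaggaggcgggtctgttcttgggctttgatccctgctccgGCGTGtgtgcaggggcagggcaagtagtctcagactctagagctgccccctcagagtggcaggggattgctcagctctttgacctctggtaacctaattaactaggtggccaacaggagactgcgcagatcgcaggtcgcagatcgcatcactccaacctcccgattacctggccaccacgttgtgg
The Il4i1 window is chr7:44836038-44836337 on the plus strand, so it begins inside the longer gene model of the annotation, and the Haao window is chr17:83846741-83847040 on the minus strand. The letters GCGTG, searched on both strands, occurred in the Haao window and in 32.4% of 32851 start regions of this length. Neither window held TTC followed after 4 bases by GAA, the spacing of letters that STAT6 binds (7.0% of start regions), or the kappaB consensus (8.5%), both searched on both strands. A match or its absence describes only the letters of this window.

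Values are FPKM, fragments scaled to the length of the gene and to the library's total, so levels can be set side by side between genes. Library totals recovered from the FPKM steps ran from 12.2 to 25.4 M fragments (median 18.4 M). Differences are of log2(FPKM + 1), the group named first minus the other, with the standard error from limma, fitted on the 11646 genes that averaged 1 FPKM or more. Passing means a p below 0.05 after Benjamini-Hochberg adjustment over all of those genes. Of the 6 genes, 5 reached that mean and Ido1 did not. Transcripts of connective tissue (Col1a1, Col1a2, Col3a1, Sparc, Dcn and Bgn) split the libraries. Their summed level was 8.14 to 12.9 FPKM in 8 libraries, all of BRFc_60mer and Ab_60mer and replicates 1 and 2 of Ab_3mer, against 0 to 0.131 FPKM in the other 10. BRFc_60mer over BRFc, BRFc_60mer over BRFc_3mer and Ab_60mer over Ab therefore lie wholly across this split, so BAFF 60mer cannot be told apart from it in those 3 comparisons, and the values of Ab_60mer against Ab_3mer replicates 1 and 2, called the carrying libraries, are given beside them. In whole-sample RNA, fewer cells of a type and less RNA per cell cannot be told apart.

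Il4i1 was the most abundant of the 6 genes, with a mean of 184 FPKM over the 18 libraries, followed by Kmo at 60.0 FPKM, Kynu at 31.5 FPKM, Ahr at 30.5 FPKM and Afmid at 9.24 FPKM. Ido1, the dioxygenase of the opening step, had 4 fragments in all 18 libraries together. It had 2 in BRFc_60mer replicate 2, 1 in Ab_3mer replicate 3 and 1 in BRFc replicate 3, and the other 15 libraries were at 0. A count of 0 allows up to 3 fragments, which for Ido1 is 0.073 to 0.153 FPKM depending on the library, counting error only. Of the other opening enzymes, Ido2 was at 0 in 15 libraries and Tdo2 averaged 2.48 FPKM. The samples thus held transcripts of the formamidase, the monooxygenase and kynureninase, while those of the opening dioxygenases were at or near the floor or low.

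Kynu was higher in every library with BAFF 60mer than in every other library. It had 44.4, 46.6 and 43.2 FPKM in BRFc_60mer and 46.8, 46.8 and 46.7 FPKM in Ab_60mer. It had 23.2, 23.1 and 25.6 FPKM in BRFc_3mer and 25.5, 25.5 and 23.4 FPKM in Ab_3mer. Without BAFF it had 24.7, 24.8 and 25.6 FPKM after mBaffR-mFc (BRFc) and 23.3, 23.7 and 24.8 FPKM after the control antibody (Ab). The 6 libraries with BAFF 60mer lay between 43.2 and 46.8 FPKM and the 12 others between 23.1 and 25.6 FPKM, with nothing between. In order of level the group means were 46.8 ± 0.064 FPKM in Ab_60mer, 44.8 ± 1.74 in BRFc_60mer, 25.1 ± 0.494 in BRFc, 24.8 ± 1.23 in Ab_3mer, 24.0 ± 1.40 in BRFc_3mer and 23.9 ± 0.781 in Ab (SD, n = 3). The lower 4 groups overlapped one another.

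The log2 difference of Kynu was 0.81 ± 0.049 in BRFc_60mer over BRFc, a 1.79-fold ratio of mean FPKM, and 0.94 ± 0.049 in Ab_60mer over Ab, a 1.96-fold ratio. Against the 3mer it was 0.87 ± 0.049 after mBaffR-mFc and 0.89 ± 0.049 after the control antibody (SE, n = 3 libraries a group). Against the 2 carrying Ab_3mer libraries alone, Ab_60mer was higher by 0.85 ± 0.052, and those carrying libraries held 25.5 FPKM each, within the range of the libraries without connective tissue transcripts. BAFF 60mer over no BAFF differed between the pretreatments by -0.13 ± 0.069, with a 95% interval of -0.27 to 0.02. Kynu rested on 610 to 1457 fragments a library, which gives a counting error of 2.62% to 4.05%. The coefficient of variation between the 3 libraries of a group was 0.137% to 5.85%, and the lowest of these, in Ab_60mer, was below the counting error of its own libraries.

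Il4i1 was also above all other libraries in each library with BAFF 60mer, and highest when mBaffR-mFc came before it. It had 252, 300.02 and 333 FPKM in BRFc_60mer and 186, 212 and 234 FPKM in Ab_60mer. It had 139.6, 141 and 146 FPKM in BRFc_3mer and 150.5, 139.6 and 158 FPKM in Ab_3mer. Without BAFF it had 156, 149 and 128 FPKM in BRFc and 173, 151 and 156 FPKM in Ab. The lowest BAFF 60mer library stood at 186 FPKM and the highest of the 12 others at 173 FPKM. The order of the group means was 295 ± 40.7 FPKM in BRFc_60mer, 211 ± 24.1 in Ab_60mer, 160.2 ± 11.4 in Ab, 149 ± 9.03 in Ab_3mer, 144 ± 14.7 in BRFc and 142 ± 3.38 in BRFc_3mer (SD, n = 3). The libraries of the highest groups did not overlap each other or the rest, and each of the lower 4 groups overlapped its neighbour in that order.

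The log2 difference of Il4i1 was 1.03 ± 0.098 in BRFc_60mer over BRFc, a 2.05-fold ratio of mean FPKM, and 0.39 ± 0.098 in Ab_60mer over Ab, a 1.32-fold ratio. Against the 3mer it was 1.04 ± 0.098 after mBaffR-mFc and 0.49 ± 0.098 after the control antibody, and against the carrying Ab_3mer libraries Ab_60mer was higher by 0.53 ± 0.11. BRFc_60mer was above Ab_60mer by 0.48 ± 0.098, a 1.40-fold ratio, between groups that both carried connective tissue transcripts. BAFF 60mer over no BAFF was larger after mBaffR-mFc than after the control antibody by 0.64 ± 0.138, with a 95% interval of 0.34 to 0.93. Il4i1 and Kynu were chosen by their differences between these groups, so their intervals are descriptions and not tests. Limma called 0.00859% of tested genes (1) for that difference, and Il4i1 was not that gene. In each of the 6 groups the coefficient of variation between libraries, 2.38% to 13.8%, exceeded the counting error of 1.05% to 1.86%.

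**Figure D1:**
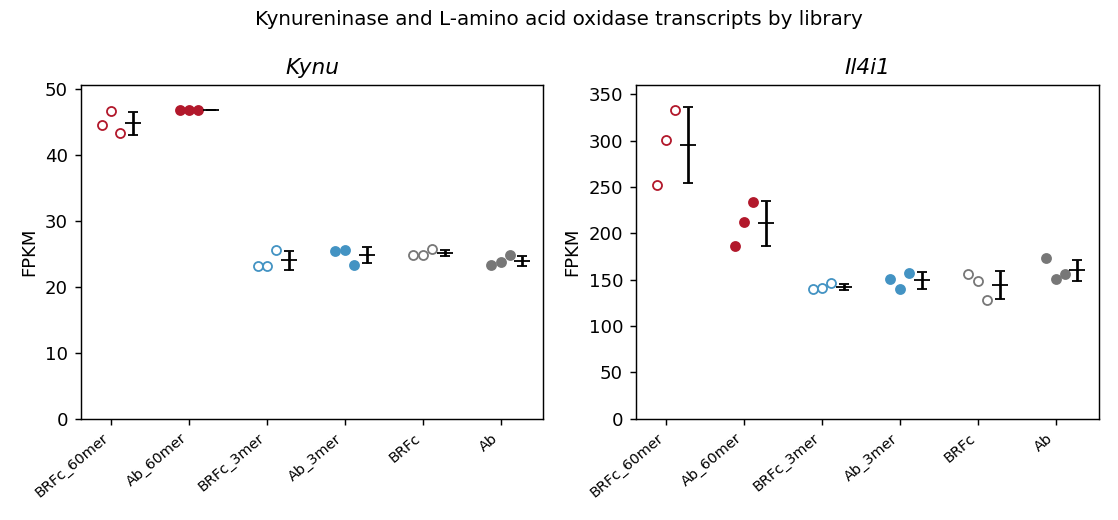
FPKM of Kynu (left) and Il4i1 (right) in each of the 18 libraries, by group, with open points for mBaffR-mFc and filled points for the control antibody (red BAFF 60mer, blue BAFF 3mer, grey no BAFF) and, beside them, the mean and SD of 3 libraries. Kynu lies at 43.2 to 46.8 FPKM in all libraries with BAFF 60mer whichever pretreatment came before, while Il4i1 is higher in BRFc_60mer than in Ab_60mer.

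The Il4i1 values carry a limit of annotation. In GENCODE M21, 3423 of its 4080 exon bases are also exon bases of Tbc1d17, a gene of a Rab GTPase-activating protein on the opposite strand, and 82 are shared with Atf5. A further 97 are shared with Nup62 on the same strand, which counting by strand would not separate and which was not analysed here. The sources used here do not say whether the counting used strand, and without it fragments of the genes cannot be told apart. Tbc1d17 did not move up with Il4i1. It had 78.5, 78.3 and 77.1 FPKM in BRFc_60mer against 82.4, 81.0 and 83.1 FPKM in BRFc, and 71.9, 76.0 and 73.7 FPKM in Ab_60mer against 87.3, 87.9 and 91.5 FPKM in Ab. Its difference was -0.26 ± 0.04 in Ab_60mer over Ab (adjusted p = 0.000603, limma) and -0.08 ± 0.04 in BRFc_60mer over BRFc (adjusted p = 0.34, limma). Against the carrying Ab_3mer libraries, Tbc1d17 in Ab_60mer differed by -0.08 ± 0.042 and did not pass (adjusted p = 0.394, limma). Fragments of both genes added together and scaled to the library total (CPM) were 429.9, 490.0 and 530.4 CPM in BRFc_60mer against 313.4, 302.5 and 278.6 CPM in BRFc, and 336.6, 375.8 and 400.2 CPM in Ab_60mer against 342.0, 315.2 and 327.0 CPM in Ab. The sum separated the groups after mBaffR-mFc, and after the control antibody the lowest Ab_60mer library lay within the range of Ab. Whether fragments in shared bases were counted for either gene, both or neither is not known. The sum therefore does not correct for the overlap.

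Kmo, which adds a hydroxyl group to kynurenine ahead of kynureninase, did not pass in any comparison. It had 58.3, 58.9 and 60.9 FPKM in BRFc_60mer, 57.4, 58.6 and 59.3 in Ab_60mer, 61.7, 58.6 and 65.4 in BRFc_3mer and 53.8, 58.4 and 60.4 in Ab_3mer. Without BAFF it had 56.8, 58.0 and 69.1 FPKM in BRFc and 59.5, 61.2 and 63.4 FPKM in Ab. The Ab_60mer libraries lay just below those of Ab, and the groups overlapped in the other 3 comparisons with the 60mer. How many of all tested genes separate likewise is not given here, so nothing is read from it. In the 4 comparisons of BAFF 60mer with no BAFF or the 3mer the differences of Kmo ran from -0.07 ± 0.063 (Ab_60mer over Ab, 95% interval -0.20 to 0.07) to 0.02 ± 0.063 (Ab_60mer over Ab_3mer), with adjusted p of 0.5 to 0.879 (limma).

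Afmid, the formamidase gene, was the least abundant of the 5 genes tested. It had 9.23, 10.1 and 9.37 FPKM in BRFc_60mer, 10.1, 10.4 and 9.80 in Ab_60mer, 9.46, 9.77 and 7.64 in BRFc_3mer and 8.04, 10.3 and 7.51 in Ab_3mer. Without BAFF it had 8.95, 9.03 and 8.41 FPKM in BRFc and 11.3, 7.91 and 8.89 FPKM in Ab. The BRFc_60mer libraries lay just above those of BRFc, and the groups overlapped in the other 3 comparisons with the 60mer. Here too the share of all tested genes that separate likewise is not given, so nothing is read from it. The differences of Afmid with BAFF 60mer were 0.11 ± 0.115 over Ab, 0.22 ± 0.115 over Ab_3mer, 0.11 ± 0.115 over BRFc and 0.09 ± 0.115 over BRFc_3mer, with adjusted p of 0.31 to 0.716 (limma). With 146 to 252 fragments a library, its counting error alone was 6.3% to 8.28%. Afmid shares 1566 of 3539 exon bases with Gm20708 on the same strand, listed at 0 FPKM, and 83 with Tk1, thymidine kinase, on the opposite strand, whose level was higher by 0.41 ± 0.088 in Ab_60mer over Ab (adjusted p = 0.00624, limma).

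Ahr, the receptor gene, had 40.3, 31.3 and 29.7 FPKM in BRFc_60mer, 31.8, 33.6 and 29.1 in Ab_60mer, 33.3, 29.3 and 25.3 in BRFc_3mer and 30.3, 32.0 and 26.6 in Ab_3mer. Without BAFF it had 33.8, 28.9 and 28.1 FPKM in BRFc and 29.3, 27.3 and 28.8 FPKM in Ab. BRFc_60mer replicate 1 was the highest library, and the groups overlapped in each comparison. The differences with BAFF 60mer were 0.14 ± 0.111 over Ab (95% interval -0.10 to 0.37), 0.09 ± 0.111 over Ab_3mer, 0.15 ± 0.111 over BRFc (-0.09 to 0.38) and 0.20 ± 0.111 over BRFc_3mer (-0.04 to 0.43), with adjusted p of 0.359 to 0.709 (limma).

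Counted over the genes tested, 2 of 5 (Kynu and Il4i1) passed upward and 3 did not pass with BAFF 60mer in each pairing. Of all 11646 tested genes, 1.46% were called higher in BRFc_60mer over BRFc and 4.83% in either direction, and 2.05% were called higher over BRFc_3mer and 5.16% in either direction. In Ab_60mer over Ab 5.04% were called higher and 14% in either direction, and over Ab_3mer 1.8% higher and 4.81% in either direction, or 2.11% in either direction against the carrying Ab_3mer libraries. Higher genes made up 30.2% of the calls over BRFc and 36.1% of those over Ab, and 43.9% and 46.4% of them after median-of-ratios rescaling. Against the carrying Ab_3mer libraries, the differences in Ab_60mer were 0.06 ± 0.07 for Kmo, 0.13 ± 0.124 for Afmid and 0.01 ± 0.12 for Ahr. The choice of Kynu and Il4i1 used these contrasts, so nothing is read from their count. The call of Il4i1 over Ab rested on single libraries, since it did not pass without Ab_60mer replicate 3 (a difference of 0.31) or without Ab replicate 2 (0.35).

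With BAFF 3mer neither Kynu nor Il4i1 stood apart from the cells without BAFF. Limma called 0 of the 5 tested genes in BRFc_3mer over BRFc and 0 in Ab_3mer over Ab, where it called 0% of all tested genes, as did voom on recovered fragments, with 388 and 632 genes at an unadjusted p under 0.05. The differences of Kynu were -0.06 ± 0.049 in BRFc_3mer over BRFc and 0.05 ± 0.049 in Ab_3mer over Ab, and those of Il4i1 were -0.02 ± 0.098 and -0.10 ± 0.098 in the same order of comparisons. Nor was any of them called for mBaffR-mFc without BAFF (BRFc over Ab) or with the 3mer (BRFc_3mer over Ab_3mer), where 0% of genes were called by limma or voom and 688 and 452 had an unadjusted p under 0.05. With the 60mer, BRFc_60mer over Ab_60mer, 0.0258% of genes (3) were called and none of the 5 was among them. In that comparison the libraries of Il4i1 and those of Kynu did not overlap, as was the case for 8.41% of all tested genes, and Kynu differed by -0.06 ± 0.049 (95% interval -0.17 to 0.04).

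**Figure D2:**
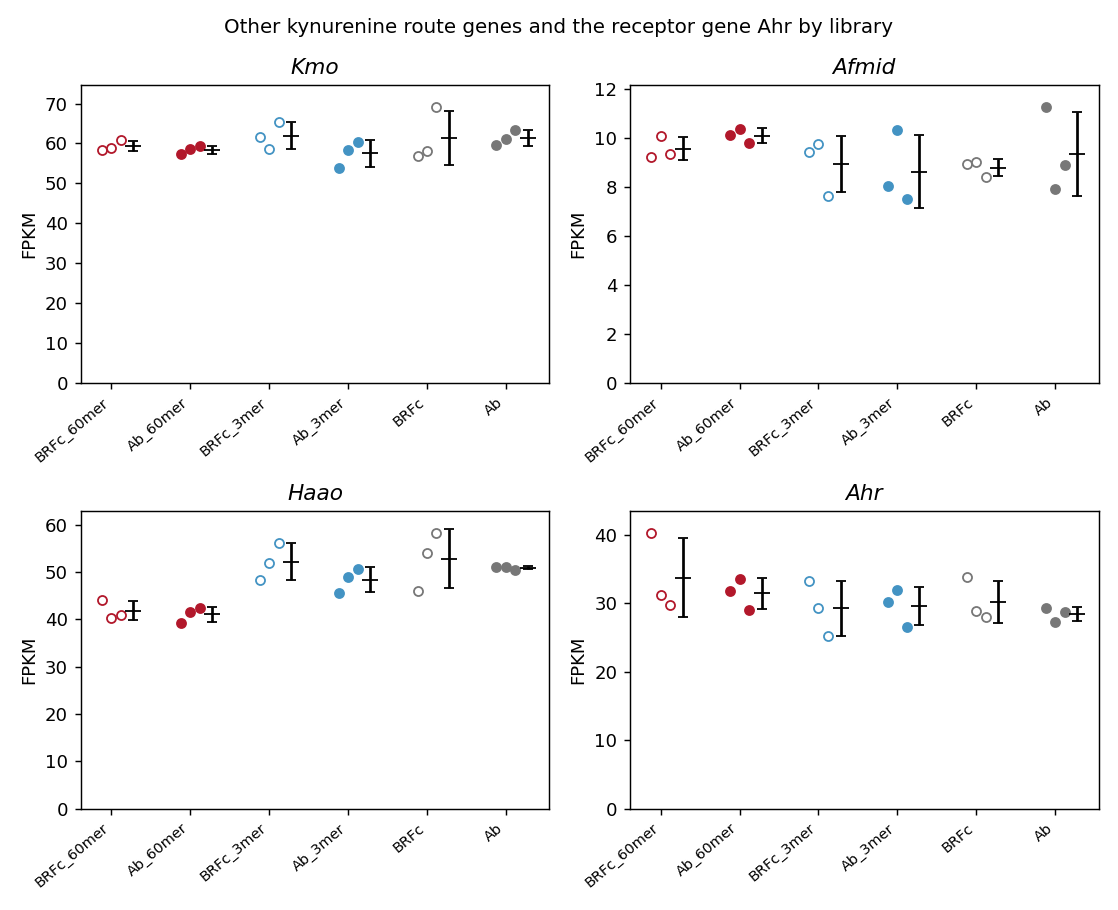
FPKM of Kmo, Afmid, Haao and Ahr in each of the 18 libraries by group, drawn as in the plot of Kynu and Il4i1 (mean and SD of 3 libraries beside the points). The 6 libraries with BAFF 60mer lie within the range of the 12 others for Kmo and Afmid and reach above it with 1 library for Ahr, while all 6 Haao libraries with BAFF 60mer lie below the others, at 39.3 to 44.1 FPKM.

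Among the 9 other enzymes of the kynurenine route, 5 were tested (Tdo2, Kyat1, Kyat3, Got2 and Haao) and Haao was the gene that passed. Haao had 44.1, 40.3 and 40.9 FPKM in BRFc_60mer against 46.0, 54.0 and 58.3 FPKM in BRFc, and 48.3, 52.0 and 56.1 FPKM in BRFc_3mer. It had 39.3, 41.5 and 42.3 FPKM in Ab_60mer against 45.6, 48.9 and 50.6 FPKM in Ab_3mer, and 51.1, 51.0 and 50.5 FPKM in Ab. The libraries with BAFF 60mer were below each of the others. How many of all tested genes separate likewise is not given here, so nothing is read from that separation. Haao fell by 0.32 ± 0.072 in BRFc_60mer over BRFc (adjusted p = 0.0146), by 0.31 ± 0.072 over BRFc_3mer (adjusted p = 0.0177) and, in Ab_60mer, by 0.30 ± 0.072 over Ab (adjusted p = 0.0111, limma throughout). Against Ab_3mer the difference was -0.23 ± 0.072 (adjusted p = 0.0768), and against its carrying libraries -0.20 ± 0.081 (adjusted p = 0.252). The call over Ab was lost without Ab_60mer replicate 1 (adjusted p = 0.0547), that over BRFc without BRFc_60mer replicate 2 or BRFc replicate 2 or 3 (0.0647 to 0.0867) or in the fit of only the groups compared (0.122), that over BRFc_3mer without BRFc_60mer replicate 2 or 3 or BRFc_3mer replicate 2 or 3 (0.0538 to 0.105), and all with a term for connective tissue transcripts (0.727 to 0.982).

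The differences of Haao were negative where those of Kynu, whose product feeds it, were positive. Against the carrying Ab_3mer libraries, a comparison within the connective tissue split, Haao did not pass (-0.20 ± 0.081, adjusted p = 0.252, limma). No opposition of Haao and Kynu is therefore read from these values. The transaminase genes that turn kynurenine to kynurenic acid did not pass: Got2, at 79.2 FPKM on average and also an enzyme of central metabolism, differed by -0.00 to 0.04 in the 4 comparisons with the 60mer, and Kyat1, at 3.31 FPKM, by -0.37 ± 0.136 in Ab_60mer over Ab (adjusted p = 0.0782, limma). The list's median was 0.04 in Ab_60mer over Ab, 0.02 over Ab_3mer, -0.04 in BRFc_60mer over BRFc and -0.02 over BRFc_3mer, against medians of -0.02, -0.00, -0.02 and -0.02 over all tested genes in those comparisons. Untested were Ido2, Aadat, Acmsd and Qprt, with means of 0 to 0.757 FPKM.

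**Figure D3:**
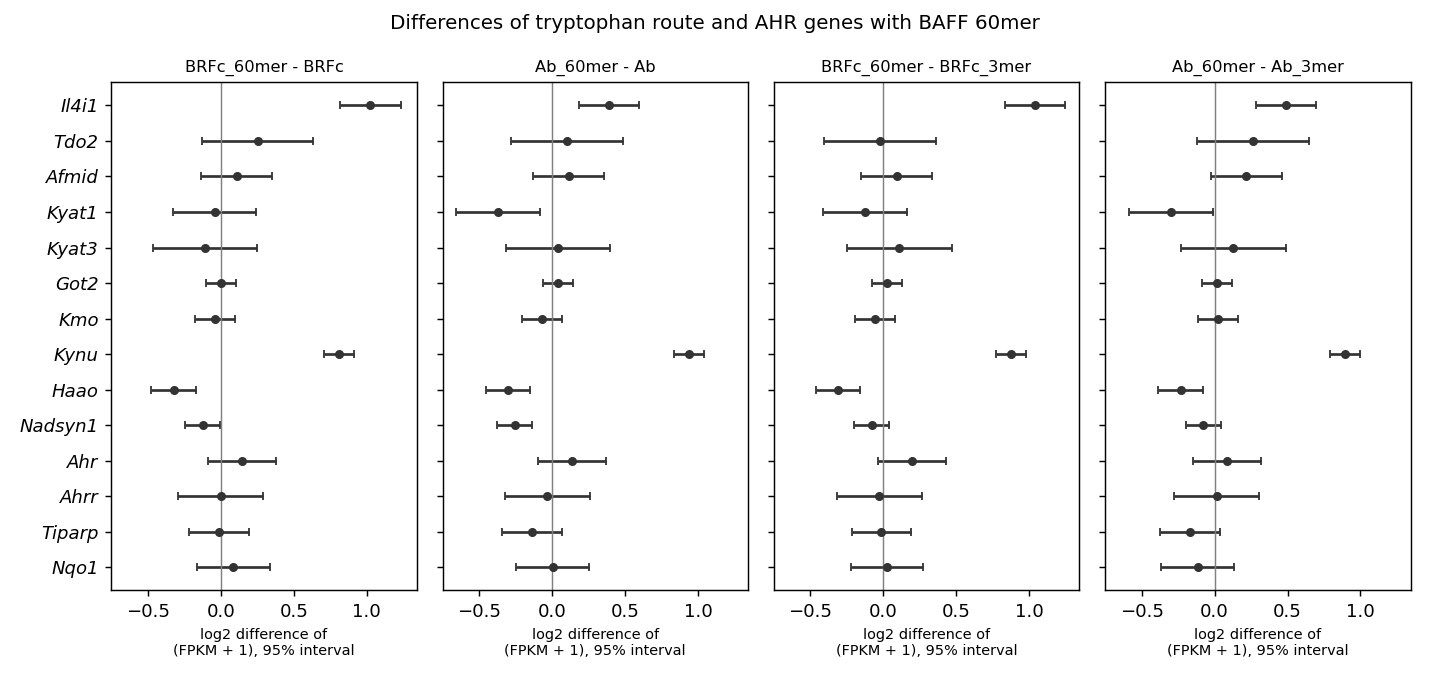
Log2 differences of (FPKM + 1) with 95% intervals from limma for genes of the tryptophan route and of AHR, 1 panel for each comparison of BAFF 60mer with no BAFF or the 3mer. Kynu and Il4i1 lie to the right of 0 in all 4 panels, Haao to the left, and the intervals of Ahr, Ahrr, Tiparp and Nqo1 include 0. Kynu and Il4i1 were chosen by these differences, so their intervals are descriptions. Nfe2l2, the remaining AHR target tested, is not drawn.

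Downstream of the route, NAD synthesis and salvage had 6 of 8 genes tested. Nadsyn1, the NAD synthetase gene, fell by 0.26 ± 0.057 in Ab_60mer over Ab, with 17.3 ± 0.304 FPKM in Ab_60mer and 20.9 ± 0.712 FPKM in Ab (SD, n = 3, adjusted p = 0.00742, limma). It did not pass in the other 3 comparisons with the 60mer (-0.12 to -0.08, adjusted p of 0.251 to 0.481), and Ab_60mer differed from the carrying Ab_3mer libraries by -0.06 ± 0.065. The call was lost with the connective tissue term (adjusted p = 0.63). Nampt, which opens the nicotinamide salvage path, did not pass (-0.01 to 0.12). Of 10 transporters of tryptophan and kynurenine, 7 were tested and 0 passed with the 60mer (limma, 1 or 2 at an unadjusted p under 0.05). With 4.81% to 14% of all tested genes called in these comparisons, nothing is read from that count. Slc7a5, the large neutral amino acid transporter, averaged 105 FPKM and differed by -0.01 to 0.07, and its partner chain Slc3a2 by -0.20 to -0.18 (adjusted p of 0.0742 to 0.177). Of the genes that use tryptophan otherwise, Wars and Wars2, the tryptophanyl-tRNA synthetases, were the 2 of 9 tested and neither passed.

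Of 9 target genes of AHR, 4 were tested and 0 passed in any of the 4 comparisons (limma). Of all tested genes, 4.81% to 14% were called in either direction in these comparisons. With so few targets tested, nothing is read from their count. Nfe2l2 was the 1 at an unadjusted p under 0.05 in both comparisons after mBaffR-mFc, with 0 after the control antibody. Tiparp, a target that also restrains the receptor, averaged 52.9 FPKM and differed by -0.17 to -0.01, and Nfe2l2, a regulator of antioxidant genes, averaged 47.1 FPKM and differed by -0.17 to -0.07 (adjusted p of 0.0624 to 0.382, limma). The Tiparp libraries of BRFc_60mer were spread, at 66.3, 47.8 and 45.7 FPKM against 53.5, 51.7 and 53.9 FPKM in BRFc. Replicate 1 was the high library, as it was for Ahr. Ahrr, the receptor's repressor, averaged 1.95 FPKM and differed by -0.03 to 0.01. Cyp1a1 was below the filter, with 0.16 to 0.76 FPKM in BRFc_60mer, 0.263 to 0.303 in Ab_60mer, 0.294 to 0.37 in BRFc and 0.21 to 0.349 in Ab. Of the receptor's complex and partners, 7 of 8 were tested. Ptges3, the p23 co-chaperone, rose by 0.17 ± 0.041 in Ab_60mer over Ab (adjusted p = 0.0152) and Hsp90ab1, an HSP90 chaperone, by 0.19 ± 0.051 in BRFc_60mer over BRFc_3mer (adjusted p = 0.0385, limma), and neither passed in the other comparisons with the 60mer. Leaving out single libraries ended these calls in 2 of 6 refits for Ptges3 and 5 of 6 for Hsp90ab1, and so did 2 and 3 of 8 other settings, the connective tissue term among them. Arnt, the partner with which AHR binds DNA, did not pass (-0.03 to 0.06).

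Beside Il4i1, 9 of 19 genes of amino acid oxidation and breakdown were tested and 0 passed with the 60mer (limma, 1 to 3 at an unadjusted p under 0.05). Their median was -0.06 in BRFc_60mer over BRFc and -0.11 in Ab_60mer over Ab. With 4.81% to 14% of all tested genes called in these comparisons, nothing is read from the count of 0. Glud1, glutamate dehydrogenase, differed by -0.11 to -0.02 (adjusted p of 0.197 to 0.863, limma). The other 10, among them Dao and Ddo, the D-amino acid and D-aspartate oxidases, and the arginases Arg1 and Arg2, were untested, with means of 0 to 0.654 FPKM.

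Genes that respond to a shortage of amino acids were lower where they passed. All 9 were tested, and Ddit3, a stress transcription factor downstream of Atf4, had 37.6 ± 2.36 FPKM in BRFc_60mer, 39.9 ± 3.48 in Ab_60mer, 50.2 ± 2.93 in BRFc_3mer, 49.6 ± 4.24 in Ab_3mer, 46.2 ± 0.445 in BRFc and 47.1 ± 3.18 in Ab (SD, n = 3). It fell by 0.41 ± 0.072 over BRFc_3mer, 0.29 ± 0.072 over BRFc, 0.31 ± 0.072 over Ab_3mer and 0.24 ± 0.072 over Ab (adjusted p of 0.00326 to 0.0395, limma). Trib3, an ATF4-induced pseudokinase, fell by 0.44 ± 0.081 in BRFc_60mer over BRFc (adjusted p = 0.00414) and did not pass in the other 3 comparisons (-0.28 to -0.22, adjusted p of 0.0575 to 0.0831). The Trib3 call was lost with the connective tissue term (adjusted p = 0.485) and in the fit of only the groups compared, and Ab_60mer differed from the carrying Ab_3mer libraries by -0.29 ± 0.093 (adjusted p = 0.136, limma). Against the carrying Ab_3mer libraries, Ddit3 in Ab_60mer differed by -0.375 ± 0.073 and passed (adjusted p = 0.0127, limma). In a fit of only the 8 libraries with connective tissue transcripts that difference did not pass (adjusted p = 0.0638, limma). Leaving out single libraries ended the Ddit3 call in 4 of 6 refits over Ab, over Ab_3mer and over BRFc, and in 0 of 6 over BRFc_3mer. Among 8 other settings it was lost in 4 over Ab, 2 over Ab_3mer, 4 over BRFc and 1 over BRFc_3mer (the connective tissue term, adjusted p = 0.0581).

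Interferon-gamma and interleukin-4 are the classical inducers of Ido1 and Il4i1, and all 11 genes listed for their receptors and signalling were tested. Ifngr1, a chain of the interferon-gamma receptor, had 212 ± 0.972 FPKM in BRFc_60mer against 192 ± 2.29 in BRFc, and 212 ± 6.82 in Ab_60mer against 192 ± 4.77 in Ab (SD, n = 3). Stat6, the transcription factor of interleukin-4 signalling, had 394 ± 0.330 FPKM in BRFc_60mer against 349 ± 4.13 in BRFc, and 389.7 ± 10.9 in Ab_60mer against 360.2 ± 3.48 in Ab (SD, n = 3). Both passed upward in all 4 comparisons, Ifngr1 by 0.14 to 0.17 (adjusted p of 0.0187 to 0.0395) and Stat6 by 0.11 to 0.19 (0.00664 to 0.0478, limma). Il4ra, the interleukin-4 receptor chain, rose by 0.14 ± 0.04 in BRFc_60mer over BRFc (adjusted p = 0.049), a call lost in 4 of 6 refits that left out a library and in 2 of 8 other settings. Leaving out single libraries ended the Stat6 call in 6 of 6 refits over Ab and over Ab_3mer, 0 of 6 over BRFc and 1 of 6 over BRFc_3mer, and the Ifngr1 call in 4 to 6 of 6 in each comparison. Among 8 other settings, the Stat6 call was lost in 4 over Ab and over Ab_3mer and in 2 over BRFc (highest adjusted p = 0.482) and over BRFc_3mer (0.34), and the Ifngr1 call in 2 in each comparison (up to 0.833), with the connective tissue term and with fits of only the groups compared among them. Against the carrying Ab_3mer libraries, Ifngr1 differed by 0.18 ± 0.045 (adjusted p = 0.0503) and Stat6 by 0.15 ± 0.041 (0.0858).

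The genes whose group means were most like those of Kynu, over the 6 groups and among 9693 genes averaging 2 FPKM or more, were Lyst, Asb2, Nid1, Ticam2 and Zbtb46. The root mean square distance between centred log2 profiles was 0.094 for Lyst, a regulator of lysosome-related organelles, 0.104 for Asb2, a ubiquitin ligase subunit, 0.124 for Nid1, a basement membrane glycoprotein, 0.125 for Ticam2, a Toll-like receptor adaptor, and 0.129 for Zbtb46, a transcription factor of classical dendritic cells, where the spread of Kynu's own profile was 0.416. Lyst had 19.2 FPKM in BRFc_60mer and 20.6 in Ab_60mer on average, 11.99 in BRFc_3mer and 12.3 in Ab_3mer, and 12.1 in BRFc and 10.6 in Ab. Over the 18 libraries instead of the group means, 4 of these 5 were named again.

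Most like Il4i1 (own spread 0.378) were Gadd45g, a stress-inducible gene, at 0.139, Slc2a6, a glucose transporter family gene, at 0.141, and Zbtb46, Fam160a1 and Chst10, a carbohydrate sulfotransferase, at 0.16 each. Gadd45g shared the higher level after mBaffR-mFc and BAFF 60mer, with 9.39, 15.1 and 15.9 FPKM in BRFc_60mer and 6.34, 7.46 and 8.62 FPKM in Ab_60mer, and averaged 6.87 FPKM in BRFc and 6.40 FPKM in Ab. Slc2a6 averaged 29.2 FPKM in BRFc_60mer, 24.5 in Ab_60mer, 18.3 in BRFc and 19.3 in Ab. Over the 18 libraries 3 of these 5 were named again. Zbtb46 stood near both, with 15.8 FPKM in BRFc_60mer, 15.9 in Ab_60mer and 9.55 to 10.2 in the other groups on average.

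**Figure D4:**
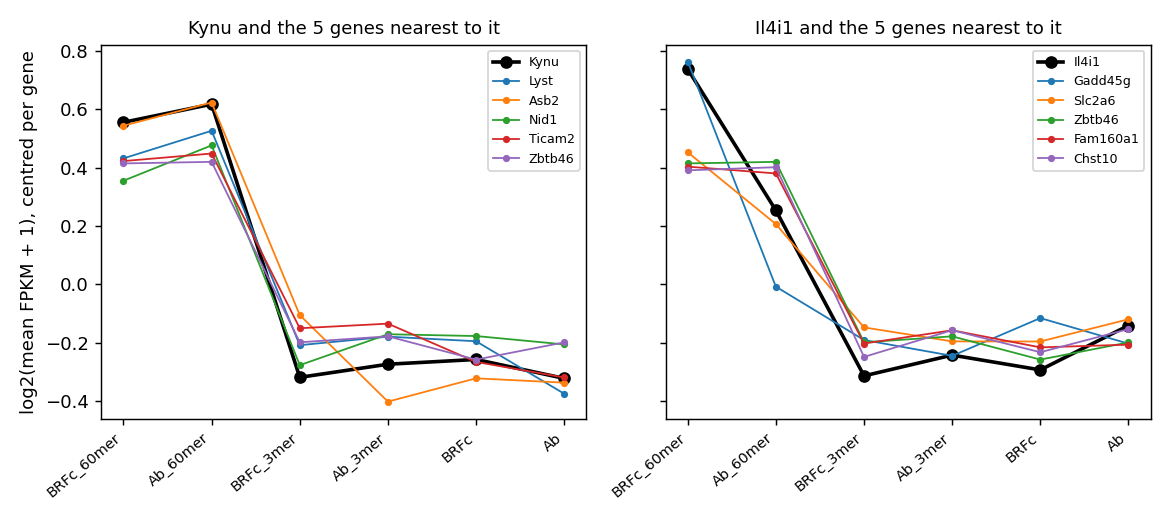
Centred profiles of log2(mean FPKM + 1) over the 6 groups for Kynu (left, black) and Il4i1 (right, black) with the 5 genes nearest to each in colour. The Kynu neighbours are at like levels in BRFc_60mer and Ab_60mer, while Gadd45g and Slc2a6 share with Il4i1 a higher level in BRFc_60mer.

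Il4i1 and Kynu are also known from myeloid and dendritic cells, so markers of other cells are given beside them. B cell transcripts were abundant (Cd79a, a chain of the B cell receptor, averaged 851 FPKM), and the summed level of 6 B cell markers was 2485 to 2665 FPKM in BRFc_60mer, 2544 to 2668 in Ab_60mer, 2650 to 2848 in BRFc and 2733 to 2844 in Ab. With the 3mer it was 2617 to 2891 FPKM in BRFc_3mer and 2638 to 2815 in Ab_3mer. Of the 6, Cd22, an inhibitory B cell receptor partner, passed downward with the 60mer in all 4 comparisons (-0.24 to -0.16). Of 10 dendritic cell markers, 6 were tested. Zbtb46 passed upward with the 60mer in all 4 comparisons (0.60 to 0.67, adjusted p of 0.00047 to 0.00112, limma), Bst2 passed downward in BRFc_60mer over BRFc_3mer, and Xcr1, Clec9a, Batf3 and Siglech averaged 0.056 to 0.448 FPKM. The summed level of the 10 was 514 to 523 FPKM in BRFc_60mer, 527 to 551 in Ab_60mer, 467 to 501 in BRFc and 505 to 513 in Ab. With the 3mer it was 471 to 501 FPKM in BRFc_3mer and 478 to 500 in Ab_3mer. Most of that sum was Ccr7, a chemokine receptor that B cells also express, which averaged 457.7 FPKM and did not pass (0.08 to 0.12, adjusted p of 0.0996 to 0.211, limma), while Flt3 and Itgax averaged 1.60 and 1.98 FPKM. Of 12 macrophage and monocyte markers, 7 were tested, and Cd14 passed downward in 3 of the 4 comparisons while 0 passed upward. The summed level of the 12 was 159 to 168 FPKM in BRFc_60mer, 151 to 167 in Ab_60mer, 161 to 175 in BRFc and 159 to 170 in Ab, with Lyz2 at 110.1 FPKM on average. With the 3mer it was 167 to 176 FPKM in BRFc_3mer and 163 to 175 in Ab_3mer. C1qa, C1qb and C1qc, which tissue macrophages express, were below the filter, and C1qa had 0.97 to 1.52 FPKM in BRFc_60mer and 0.446 to 0.944 in Ab_60mer, against 0 to 0.052 in BRFc and 0.132 to 0.307 in Ab. These groups lie wholly across the connective tissue split, so for C1qa the 60mer cannot be told apart from it. The C1qa levels with the 3mer and those of C1qb and C1qc are not given here. The part of these cells in the Kynu and Il4i1 levels was not tested. Markers of T cells (4 of 9 tested) and neutrophils (5 of 6 tested) gave 0 calls with the 60mer (limma, at most 1 of each list at an unadjusted p under 0.05), 1 or 2 of 8 NK cell markers (Klrd1 and Klre1) passed downward in 3 of the 4 comparisons, and Sdc1, of 5 plasma cell markers tested, passed downward in all 4 (-0.90 to -0.67). With 4.81% to 14% of all tested genes called in these comparisons, nothing is read from the 0 calls. Against the carrying Ab_3mer libraries, Ab_60mer differed by 0.54 ± 0.102 for Zbtb46 (adjusted p = 0.00996) and -0.84 ± 0.085 for Sdc1 (8.96e-05, limma). Cd22 (-0.16 ± 0.048, adjusted p = 0.101) and Cd14 (-0.35 ± 0.099, 0.0856, limma) did not pass there.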

How the data were processed

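RNA from 18 libraries in 6 groups of 3 was analysed. The deposited values are FPKM, made for the authors by a commercial sequencing provider, per the labels' protocols. The aligner, counter, build and strand setting are not given in the sources used here. Of 35275 gene IDs, 34490 matched GENCODE M21 (GRCm38), the source of symbols and positions, and 0 sample columns were left unused. Whole fragments were recovered for 100.0% of the 11646 tested genes, to within 0.01 of a fragment, by taking FPKM as per length and library total. The length so recovered equalled the mean length of a gene's transcripts in 51.5% of 11568 matched genes, so levels between genes depend on which transcripts are annotated. limma 3.58.1 in R 4.3.3 tested log2(FPKM + 1) with a variance trend and 1 model over the 6 groups, on genes averaging 1 FPKM or more, and p-values were adjusted over all of them. The fit was checked on simulated data. Replicates are numbered in order of deposition and paired with nothing. Python 3.11.15 and matplotlib 3.10.9 drew the figures.

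The members, gene lists and alternatives were chosen with earlier results of these data known. Named were all members, up to 4 passing members of a list in a comparison or 2 abundant ones where none passed, and the 5 genes nearest Kynu and Il4i1. The values of 1 gene that this rule names are not reported here. Alternatives were quality weights, median-of-ratios rescaling, a pseudocount of 0.1, no filter on low values, a filter at 5 FPKM, fits of only the groups compared, voom on recovered fragments, a term for connective tissue transcripts and leaving out each library. Chosen after seeing the data were the values of genes sharing exon bases, the sum of Il4i1 and Tbc1d17 fragments, and the comparison with carrying Ab_3mer libraries.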

Additional observations from a re-analysis of the deposited data

How the results depend on the processing

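No paired analysis was possible because the labels give no replicate numbers. Kynu, chosen on these contrasts, had differences across the alternatives of 0.82 to 0.97 in Ab_60mer over Ab and 0.69 to 0.85 in BRFc_60mer over BRFc, the low ends with the connective tissue term. Il4i1 in Ab_60mer over Ab did not pass with that term (0.51), without Ab_60mer replicate 3 (0.31) or without Ab replicate 2 (0.35). In BRFc_60mer over Ab_60mer it passed with quality weights (0.48) and without BRFc_60mer replicate 1 (0.59). Il4i1 was also chosen by its differences in these data, so nothing is read from its calls. Kmo, Afmid and Ahr passed in none of the alternatives.

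The counts of genes called moved with the settings. With the connective tissue term they were 16 in Ab_60mer over Ab (1628 otherwise), 246 in Ab_60mer over Ab_3mer (560), 10 in BRFc_60mer over BRFc (563), 15 in BRFc_60mer over BRFc_3mer (601), 1 in Ab_3mer over Ab (0), 1 in BRFc_3mer over Ab_3mer (0), and 2 and 1 for the difference between pretreatments in the 60mer (1) and 3mer (0) effects. In fits of only the groups compared they were 1053, 252, 139 and 287 for the first 4 of these, 2 in BRFc_3mer over BRFc, 2 in BRFc_3mer over Ab_3mer, 0 in BRFc_60mer over Ab_60mer (3) and 0 for the 60mer difference. With quality weights they were 1386 in BRFc_60mer over BRFc, 1318 over BRFc_3mer and 8 over Ab_60mer. With no filter they were 1 in Ab_3mer over Ab, 1 in BRFc_3mer over Ab_3mer, 0 for the 60mer and 1 for the 3mer difference, and with rescaling 0 for the 60mer difference. Voom on recovered fragments called 1581, 558, 711 and 610 genes for those 4 in the same order. Leaving out single libraries gave 756 to 1668 in Ab_60mer over Ab, 246 to 471 in Ab_60mer over Ab_3mer, 242 to 731 in BRFc_60mer over BRFc, 233 to 543 in BRFc_60mer over BRFc_3mer, 1 to 6 in BRFc_60mer over Ab_60mer, 0 for the 60mer difference, and 0 to 1 in BRFc over Ab, in BRFc_3mer over Ab_3mer, in BRFc_3mer over BRFc, in Ab_3mer over Ab and for the 3mer difference. The cause of these changes was not tested. Of 1110 refitted values of single genes, 997 kept their call, 111 no longer passed and 2 newly passed. None changed sign while passing in either fit. Values that passed in neither fit count as kept even where the sign changed. Afmid in Ab_60mer over Ab, for example, ran from -0.14 to 0.14 across the alternative settings. Of the 5 tested among the 6 genes, Afmid had the fewest fragments and the largest counting error, 6.3% to 8.28%. Its coefficient of variation within groups ran from 2.93% to 18.5%.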
